A study of Homo sapiens with 6 samples.

Results

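Polycomb repressive complex 1 (PRC1) attaches ubiquitin to histone H2A through RING1 or its paralog RNF2, each joined to 1 of the PCGF proteins, and the PCGF protein sets which other subunits take part. In the variant complexes these are PCGF1 with BCOR or BCORL1 and KDM2B (PRC1.1), PCGF5 (PRC1.5), and PCGF6 with L3MBTL2 (PRC1.6). They recruit the ligase to CpG islands or to sites of sequence-specific repressors without the CBX readers of trimethylated H3K27, and BCOR and BCORL1 are among the genes mutated in myeloid malignancies.

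Hairpins against these ligases and variant PRC1 subunits were followed in a screen of chromatin regulators in azacitidine (AZA), a cytidine analogue used against myelodysplastic syndrome and acute myeloid leukemia. All rows whose gene symbol was RING1, RNF2, PCGF1, BCOR, BCORL1, KDM2B, PCGF5, PCGF6 or L3MBTL2 were taken, which gave 9 of the 912 genes and 72 of the 7293 short hairpin RNAs (hairpins) seen. The cells were SKK-1, an established line from leukemia secondary to myelodysplastic syndrome, which carries mutations in U2AF1 and in BCOR itself according to the study's description. In both groups the cells carried the lentiviral pool and had been selected with puromycin. 3 transduced cultures were divided, so that Untreated 1 to 3 and AZA treated 1 to 3 are parts of the same cultures, the latter dosed with 0.25 µM AZA at intervals of 2 days and both harvested for genomic DNA after 14 days.

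The hairpins sat in a microRNA backbone driven by the SFFV promoter, in cells infected at low titre to favour 1 integration per cell. Knockdown of the members was not measured in the files, and no sample of the pool before growth was used, so a level here joins the composition of the pool with growth. The read-out is the number of sequencing reads of each hairpin amplified from genomic DNA. Libraries held 12292575 to 19645459 counts without drug and 18542022 to 22587662 with AZA, and the members' hairpins took 0.874% to 1.09% of them. Hairpin and summed gene values in CPM are counts scaled to the library total. Log2 CPM, gene scores and edgeR log2 fold changes use counts normalized by the trimmed mean of M-values (TMM) instead. All 72 member hairpins passed the filter for testing, with 4 zeros among their counts, in 2 hairpins. Correlations of log2 CPM over hairpins were 0.382 to 0.397 between untreated and 0.522 to 0.546 between AZA libraries. Counts of replicate libraries differed far beyond counting error, and the part of culture, amplification and DNA input in this was not tested.

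Guide sequences were held here for 16 of the 72 member hairpins, those against BCOR and BCORL1. The 7 on which the values below turn are printed 5′ to 3′ in DNA letters, with the seed (bases 2 to 8 of the guide, which lead pairing to a target) in capitals. BCORL1.1686, BCORL1.2742, BCOR.1281 and BCOR.4794 had the smallest p of their genes, and the other 3 were nearly absent from some libraries.
BCORL1.1686: tAACAAGGgaggtatctgccaa
BCORL1.2742: tTTTGTTCtttgtaacagggtc
BCORL1.2377: tATCGTTTcactgtgcttggct
BCORL1.3306: tTTCCTGTttcactcgagcctg
BCOR.1281: tTTTCTGTcttgaaccgctgtc
BCOR.4794: tTCAAATTcaaacacatcgcta
BCOR.3967: tTTTGCACagtctcttcccgga

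All 16 guides matched their gene's canonical transcript over all 22 bases, 13 in coding sequence and 3 in the 3′ UTR, and none matched another gene over 21 bases. The 16 seeds were all different, so no member pair among them shares a seed. On GRCh38 the 4 BCORL1 sites lie in coding exon 4 of the plus-strand gene, at chrX:130014414-130014435 (BCORL1.1686), chrX:130015470-130015491 (BCORL1.2742), chrX:130015105-130015126 (BCORL1.2377) and chrX:130016034-130016055 (BCORL1.3306). The BCOR sites are coding too, on the minus strand, in exon 4 at chrX:40074089-40074110 (BCOR.1281), exon 14 at chrX:40053942-40053963 (BCOR.4794) and exon 9 at chrX:40062826-40062847 (BCOR.3967).

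The first question was whether any member differed in hairpin abundance between treated and untreated cells. No member passed the test at the level of the gene or of the hairpin. Per gene, the score was the mean over its 8 hairpins of log2 CPM, and 0 of the 9 members passed limma at an adjusted p of 0.05, against 0% of all genes lower and 1.21% higher with AZA. With no adjustment and the same threshold there were 0 members lower, against 0.658% of all genes, and 2 higher, RING1 and BCORL1, against 14.3%. The scores of the 3 AZA libraries lay entirely above those of the 3 untreated ones for the same 2 members, against 16% of all genes, and entirely below for PCGF6 alone, against 4.06%. The median score difference over all 912 genes was 0.25 rather than 0 (quartiles -0.06 and 0.60), and the members' median was -0.05. The all-gene median was 0.02 with the median over a gene's hairpins in place of the mean and -0.14 with the log2 of their summed CPM. Differences with summed CPM, here and below, use TMM-normalized CPM, unlike the printed sums. Differences below are on the log2 scale, AZA minus untreated, and are to be read against that shift. The limma intervals and p-values are set against a difference of 0 and not against the shift.

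**Figure D1:**
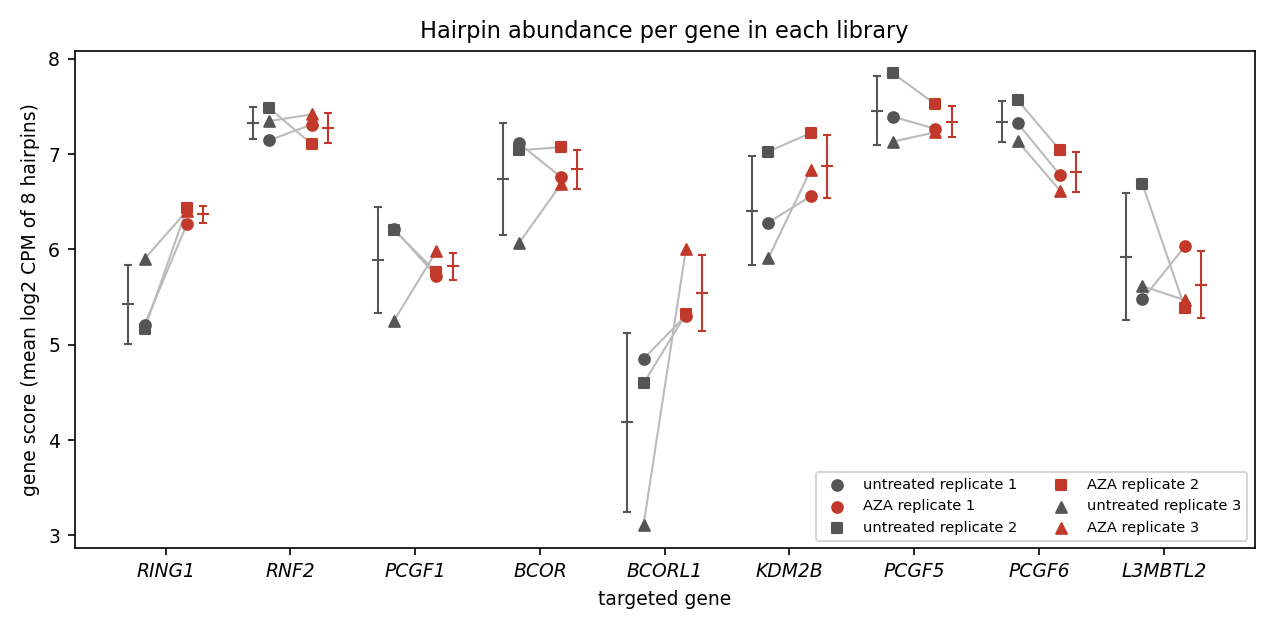
Gene score (mean log2 CPM of 8 hairpins) of the 9 targeted genes in each untreated (grey) and AZA (red) library, with lines joining the parts of one culture and bars giving mean ± SD (n = 3). RING1 and BCORL1 have all AZA libraries above all untreated ones and PCGF6 has them below, while the groups of the other 6 members overlap.

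Among single hairpins, 0 of 72 passed the edgeR quasi-likelihood test at an adjusted p of 0.05, against 0.0551% of all hairpins lower and 0.0138% higher. With p unadjusted at the same threshold, 3 were lower (PCGF6.747, PCGF6.985 and RNF2.619), against 3.72% of all hairpins, and 0 were higher, against 1.9%. The DESeq2 Wald test called 2 lower, PCGF6.747 and RNF2.619, against 1.05% of all, and 0 higher, against 0.812%. A log2 fold change under 0 was seen in 41 of the 72, against 54.9%, and in 33 with the replicate number as a block, against 46.1%. CPM did not overlap between groups in 4 hairpins that were lower, against 4.31%, and in 6 that were higher, against 9.17%. All 3 pairs were lower for 13 hairpins, against 14.9%, and higher for 11, against 14.4%. Apart from the DESeq2 count, which rests on 2 hairpins, the members' shares were near the background. The SD of log2 CPM was larger over untreated than over AZA libraries in 48 of the 72 hairpins, against 73.1% of all.

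**Figure D2:**
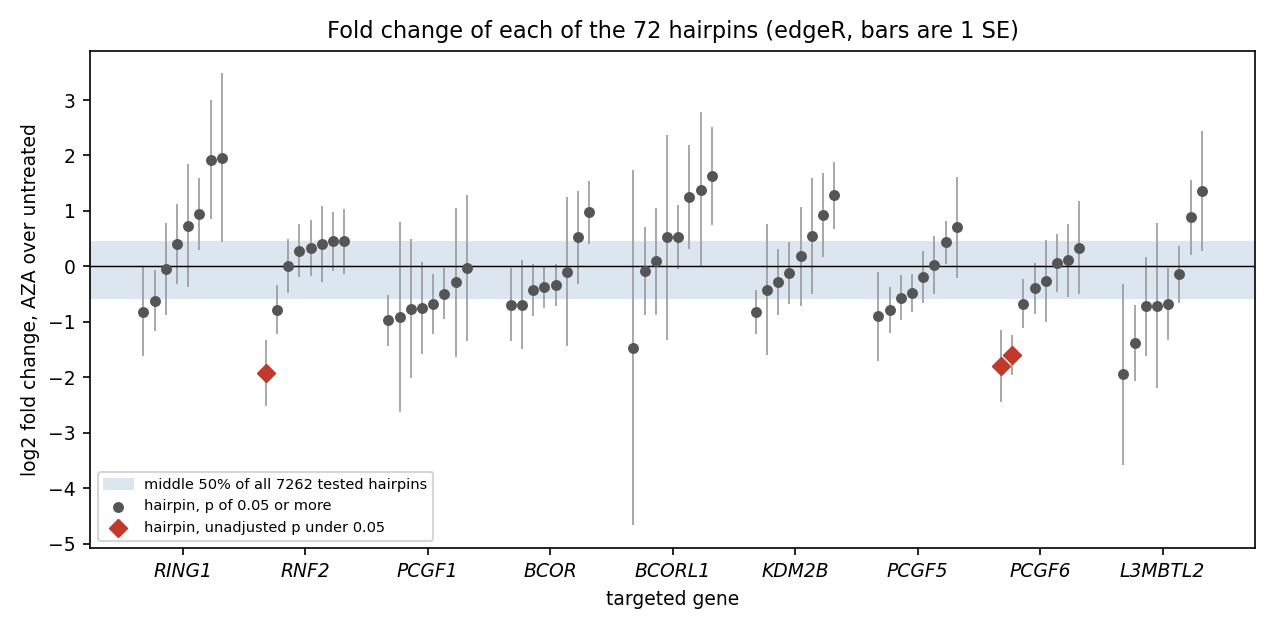
Log2 fold change (AZA over untreated, edgeR, bars are 1 SE) of the 72 hairpins by targeted gene, with the band holding the middle 50% of all 7262 tested hairpins. The 3 diamonds with an unadjusted p under 0.05 are 1 hairpin of RNF2 and 2 of PCGF6, and each gene has hairpins both inside and outside the band.

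RING1 and RNF2 are the alternative catalytic subunits of every PRC1 complex. Hairpins against RING1 (chr6:33208500-33212722 on GRCh38) summed to 514, 763 and 492 CPM in Untreated 1 to 3 and to 772, 779.6 and 801 CPM in AZA treated 1 to 3. On library totals all AZA libraries lay above all untreated ones, by little over Untreated 2. Whether this holds for TMM-normalized sums was not tested. The score went from 5.42 ± 0.41 to 6.37 ± 0.09 (SD, n = 3 each), a difference of 0.94 ± 0.29 SE with a 95% interval of 0.30 to 1.59, in 3 of 3 pairs. This did not pass the correction (limma adjusted p = 0.199). The difference was 1.11 with library totals, 0.55 with the median over hairpins and 0.58 without the strongest hairpin. It was 0.56 as the mean of edgeR log2 fold changes and 0.28 with summed CPM. Of its 8 hairpins 5 had an edgeR log2 fold change above 0, and the values ran from -0.81 to 1.96.

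RING1.1512 had 15.2, 4.60 and 48.0 CPM in the untreated and 60.7, 101 and 126 CPM in the AZA libraries (log2 fold change 1.93 ± 1.08 SE, edgeR adjusted p = 0.931). RING1.1541 had 45.2, 71.2 and 97.9 CPM without drug and 219.8, 127.5 and 117 CPM with AZA (0.95 ± 0.65, edgeR adjusted p = 0.991). For both the groups did not overlap, and RING1.1512 varied widely among the untreated libraries. RING1.1255 had the highest log2 fold change of the gene, and it rested on 16 and 24 counts in Untreated 1 and 2, against 957 in Untreated 3 and 572, 3036 and 990 with AZA.

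RNF2 (chr1:185045526-185102603), the paralog, stood at 1259.7, 1518 and 1529 CPM without drug and at 1499.9, 1229.7 and 1547 CPM with AZA, with fully interleaved libraries. Its score difference was -0.05 ± 0.25 SE, with an interval of -0.61 to 0.52 (limma adjusted p = 0.951). Of its 8 hairpins 6 had a log2 fold change from 0.01 to 0.45, and the other 2 were lower. RNF2.619 had 327, 97.1 and 580.0 CPM without drug and 73.7, 134.5 and 87.3 CPM with AZA (-1.92 ± 0.59, edgeR adjusted p = 0.678, DESeq2 adjusted p = 0.0223). The groups overlapped through Untreated 2, and in pair 2 it was higher with AZA. RNF2.2173 had 254, 375 and 205 CPM against 259, 142 and 145 CPM, groups that also overlap (-0.78 ± 0.44, edgeR adjusted p = 0.932).

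A direct test asked whether the paralogs differed in their response. RING1 minus RNF2 in score was -1.90 ± 0.44 without drug and -0.91 ± 0.20 with AZA (SD, n = 3 each). The difference of 0.99 had an exact two-sided permutation p of 0.1, the smallest that 3 against 3 libraries can give, and the 3 pairs gave 0.89, 1.65 and 0.43 (exact sign permutation p = 0.25, also the smallest possible). Neither permutation can reach 0.05 with these libraries, and the difference was 0.47 with the median over hairpins and 0.45 with summed CPM. By the distance over the 3 within-pair differences, the genes most like RING1 were BRD9 (0.22), RECQL5 (0.22) and PHF19 (0.23), where the median gene lay at 1.72. Those most like RNF2 were TTF2 (0.048), SND1 (0.097) and UBR1 (0.14), with a median of 1.11. These distances rest on 3 values each and describe likeness of pattern only.

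PRC1.1 is built on PCGF1 (chr2:74505043-74507695), the PCGF protein that binds BCOR or BCORL1. Its hairpins summed to 938, 1274 and 999 CPM without drug and 583, 699.9 and 944 CPM with AZA, groups that overlap at Untreated 1 and AZA treated 3. The score difference was -0.07 ± 0.32 SE (limma adjusted p = 0.943). All 8 hairpins had an edgeR log2 fold change under 0, from -0.97 to -0.03, but 5 of 8 did with the replicate block, and 3 of 8 had a higher mean log2 CPM with AZA. The size of the difference depended on how the hairpins were combined, at -0.72 with their median (limma adjusted p = 0.482), -0.71 with summed CPM (limma adjusted p = 0.228) and -0.61 as the mean of edgeR log2 fold changes. Its sign turned with library totals (0.092) and without Untreated 1 (0.097) or Untreated 2 (0.088). PCGF1.844 had 244, 549 and 314 CPM against 117, 216 and 304 CPM (-0.97 ± 0.45, edgeR adjusted p = 0.898), with 0 of 3 pairs higher. PCGF1.557 had 181, 200.1 and 355 CPM against 90.3, 119 and 309.6 CPM (-0.67 ± 0.54, edgeR adjusted p = 0.991). In both hairpins the groups overlap through AZA treated 3. PCGF1.76 had 203, 1487 and 3 counts without drug and 171, 559 and 521 with AZA. PCGF1.652 had 1165, 23 and 1149 counts and then 1082, 259 and 2169. The edgeR log2 fold changes of PCGF1.76 and PCGF1.652 were -0.91 and -0.03, while their mean log2 CPM was higher with AZA by 1.20 and 0.92.

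BCOR (chrX:40049815-40177329), the corepressor that joins PCGF1 to its partners, is mutated in these cells. Its 8 hairpins summed to 1200.4, 1163 and 1196 CPM without drug and 1146, 1266 and 1069.5 CPM with AZA, an overlapping range. The score difference was 0.10 ± 0.34 SE (interval -0.67 to 0.87, limma adjusted p = 0.921). It was -0.18 without the strongest hairpin (BCOR.3967), -0.20 with summed CPM and -0.14 as the mean of edgeR log2 fold changes. Of the 8 hairpins 6 had an edgeR log2 fold change under 0. BCOR.1281 had 83.9, 66.9 and 109.7 CPM against 199.8, 122 and 250.5 CPM with no overlap (0.97 ± 0.57, edgeR adjusted p = 0.951). BCOR.4794 had 80.3, 259.9 and 119 CPM against 167, 85.6 and 69.6 CPM, with overlap (-0.69 ± 0.66, edgeR adjusted p = 0.991). These 2 guides, printed above with different seeds, thus had log2 fold changes of opposite sign. BCOR.3967 had 4 counts in Untreated 3 and 1424 and 1413 in the other untreated libraries, against 1079 to 1820 with AZA. Untreated 3 had the lowest untreated score of the gene, 6.06 against 7.12 and 7.04, and this mean includes BCOR.3967.

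BCORL1 (chrX:129981107-130058071), the BCOR paralog, had the lowest hairpin level of the members and ranked 22nd from the bottom of 912 genes without drug. Its hairpins summed to 573, 410.4 and 321 CPM in the untreated and 692, 808 and 774 CPM in the AZA libraries, with no overlap. The score went from 4.18 ± 0.94 to 5.54 ± 0.40, a difference of 1.36 ± 0.46 SE with an interval of 0.30 to 2.41, in 3 of 3 pairs (limma adjusted p = 0.233). Without Untreated 3 the difference was 0.82, and over all 6 libraries it was 0.86 with the median over hairpins, 0.68 with summed CPM and 0.48 as the mean of edgeR log2 fold changes. Mean log2 CPM was higher with AZA for 8 of 8 hairpins and the edgeR log2 fold change for 6 of 8. By mean log2 CPM 33 of the 72 member hairpins were lower, and the share over all hairpins is not given here.

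BCORL1.1686 had 56.0, 30.1 and 11.1 CPM without drug and 108, 83.6 and 143.5 CPM with AZA, groups that do not overlap (1.63 ± 0.89, edgeR adjusted p = 0.921). BCORL1.2742 had 14.2, 89.6 and 47.6 CPM against 61.3, 291 and 54.2 CPM and overlapped, with 3 of 3 pairs higher (1.25 ± 0.94, edgeR adjusted p = 0.991). BCORL1.2377 had 1149, 27 and 0 counts without drug and 1169, 926 and 922 with AZA. Untreated 3, at 0 counts, is bounded by the floor of 3 counts (0.153 CPM). BCORL1.3306 was scarce in both groups, with 0, 484 and 0 counts and then 27, 0 and 219. These 2 hairpins had log2 fold changes of 0.52 ± 1.85 and -1.47 ± 3.20 SE, which leave their direction unresolved, and with the replicate block they were 4.67 and 5.34.

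**Figure D3:**
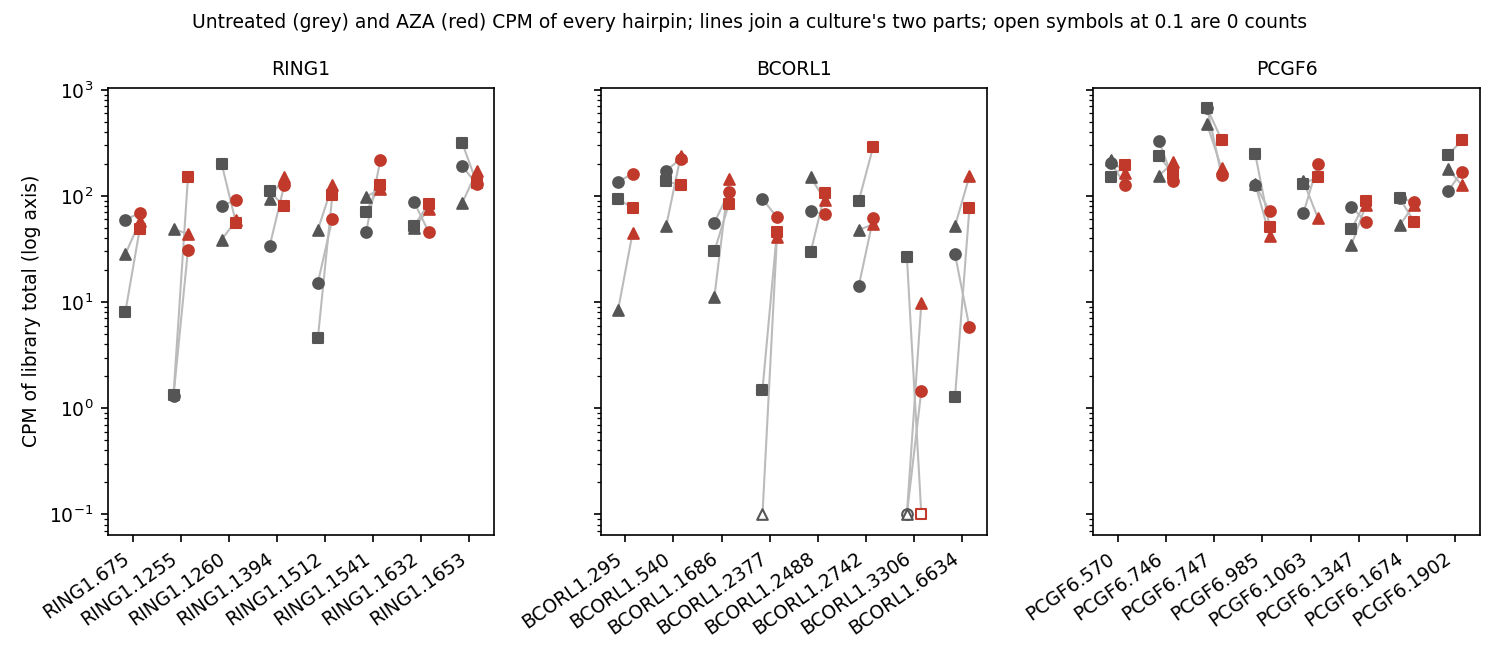
CPM on a log axis of all 8 hairpins of RING1, BCORL1 and PCGF6 in untreated (grey) and AZA (red) libraries, with circles, squares and triangles for replicates 1, 2 and 3 and open symbols at 0.1 for 0 counts. The untreated values of several RING1 and BCORL1 hairpins spread widely, while PCGF6.747 and PCGF6.985 have all AZA libraries below all untreated ones.

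KDM2B (chr12:121429096-121581023), the demethylase whose CXXC domain binds unmethylated CpG, summed to 967, 1103 and 1048 CPM without drug and 903, 1385 and 1237 CPM with AZA, with overlap. Its score difference was 0.47 ± 0.35 SE in 3 of 3 pairs (limma adjusted p = 0.567). It was 0.78 without Untreated 2, 0.22 without Untreated 3, 0.29 without AZA treated 2, and -0.0072 with summed TMM-normalized CPM. The sums printed above, on library totals, averaged 1039 CPM without drug and 1175 CPM with AZA. KDM2B.3731 had 69.4, 72.5 and 70.9 CPM against 113, 303 and 163.5 CPM (1.28 ± 0.61, edgeR adjusted p = 0.898). KDM2B.4739 had 327, 301 and 482 CPM against 138, 279 and 288 CPM (-0.82 ± 0.39, edgeR adjusted p = 0.898). Neither overlapped between groups, and the directions were opposite.

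PCGF5 (chr10:91163012-91284337), the PCGF protein of PRC1.5, had the highest score in both groups. Its hairpins summed to 1856, 1904 and 1500.2 CPM without drug and 1423, 1842 and 1598 CPM with AZA, with overlap (score difference -0.12 ± 0.28 SE, limma adjusted p = 0.884). PCGF5.1266 had 313, 542 and 208 CPM against 227, 194 and 272 CPM (-0.79 ± 0.41, edgeR adjusted p = 0.898). PCGF5.5426 had 659.7, 342 and 498 CPM against 259, 459 and 478 CPM (-0.48 ± 0.34, edgeR adjusted p = 0.991). Both overlapped and each was higher with AZA in 1 of 3 pairs.

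PRC1.6 was represented by PCGF6 and L3MBTL2, a protein with malignant brain tumour repeats that bind methylated lysine. PCGF6 (chr10:103302796-103351144) summed to 1691, 1826 and 1383 CPM without drug and 1007, 1375 and 948 CPM with AZA. The groups did not overlap, with Untreated 3 and AZA treated 2 nearly level. The score went from 7.34 ± 0.22 to 6.81 ± 0.21, a difference of -0.53 ± 0.26 SE with an interval of -1.12 to 0.06, and the 3 pairs gave -0.54, -0.53 and -0.52 (limma adjusted p = 0.390).

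Within PCGF6 the hairpins were not alike, and 3 of 8 had a log2 fold change above 0. PCGF6.747 had 676.5, 674 and 473 CPM without drug and 156, 338.5 and 182 CPM with AZA, every AZA library under every untreated one (-1.59 ± 0.36, edgeR adjusted p = 0.507, DESeq2 adjusted p = 0.000401). PCGF6.985 had 127, 248 and 130.4 CPM against 72.1, 50.9 and 42.0 CPM, again with no overlap (-1.79 ± 0.65, edgeR adjusted p = 0.754). The other 6 ran from -0.67 to 0.34.

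L3MBTL2 (chr22:41205282-41231271) summed to 624, 965 and 642 CPM without drug and 713, 733 and 507 CPM with AZA, with overlap. Its score difference was -0.30 ± 0.37 SE, lower in 2 of 3 pairs (limma adjusted p = 0.752), and 0.083 without Untreated 2. L3MBTL2.668 had the lowest log2 fold change of the gene (-1.94 ± 1.63), with 183, 2756 and 21 counts without drug and 605, 293 and 69 with AZA. L3MBTL2.1615 had 55, 962 and 1487 counts and then 785, 19 and 1113. L3MBTL2.974 had 245, 169.6 and 60.4 CPM against 56.2, 80.6 and 66.5 CPM, with overlap (-1.38 ± 0.69, edgeR adjusted p = 0.898). L3MBTL2.2952 had 45.7, 102.5 and 57.8 CPM against 185, 157.5 and 85.6 CPM, also with overlap (0.88 ± 0.68, edgeR adjusted p = 0.991).

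Ordered by score without drug, PCGF5, PCGF6 and RNF2 came first (7.46 to 7.33) with overlapping ranges over the 3 libraries. BCOR, KDM2B, L3MBTL2, PCGF1 and RING1 followed (6.74 to 5.42), each overlapping its neighbour, and BCORL1 stood apart below them. With AZA the order was PCGF5, RNF2, KDM2B, BCOR and PCGF6 with neighbours overlapping, then RING1 apart from both neighbours, then PCGF1, L3MBTL2 and BCORL1. Since these levels also hold each hairpin's share of the starting pool, they are not levels of the proteins or transcripts.

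A further comparison used hairpins whose target sites nearly coincide. The numbers in hairpin names give the site, and for the 244 pairs of hairpins in the library 1 to 7 numbers apart whose guides were held, all 244 overlapped by exactly that shift. By this, 6 member pairs share 15 to 21 of 22 bases of their site, and the seed of each is shifted against the other. L3MBTL2.2952 and L3MBTL2.2953, 1 base apart, had log2 fold changes of 0.88 and -0.68. The change of their ratio was tested by exact permutation of the 6 libraries (p = 0.1, the smallest possible, 0.4 after adjustment over the 6 pairs). L3MBTL2.2953 had 98.4, 204 and 142 CPM without drug and 150.3, 117 and 46.2 CPM with AZA, so the ratios of the pair did not overlap between groups.

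PCGF6.746 and PCGF6.747, also 1 base apart, had -0.67 and -1.59 (exact permutation p = 0.2). RNF2.619 and RNF2.626, which share 15 bases, had -1.92 and 0.45 (exact permutation p = 0.2), and RING1.1255 and RING1.1260, which share 17, had 1.96 and -0.81 (exact permutation p = 0.3). KDM2B.1964 and KDM2B.1965 had 0.93 and 0.55, and PCGF1.76 and PCGF1.82 had -0.91 ± 1.71 and -0.76 ± 1.26 SE. By these edgeR values the signs differed in 3 of 6 pairs. The sign of PCGF1.76 is unresolved. The PCGF1 pair had opposite signs by the difference in mean log2 CPM (1.20 and -0.09) and with the replicate block (0.20 and -0.36). Over the library, hairpins 1 base apart had the same sign in 59.4% of 350 pairs, with a median gap of 0.63, against 51.9% of 24122 pairs over 22 bases apart on the same gene, with a median gap of 0.73.

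**Figure D4:**
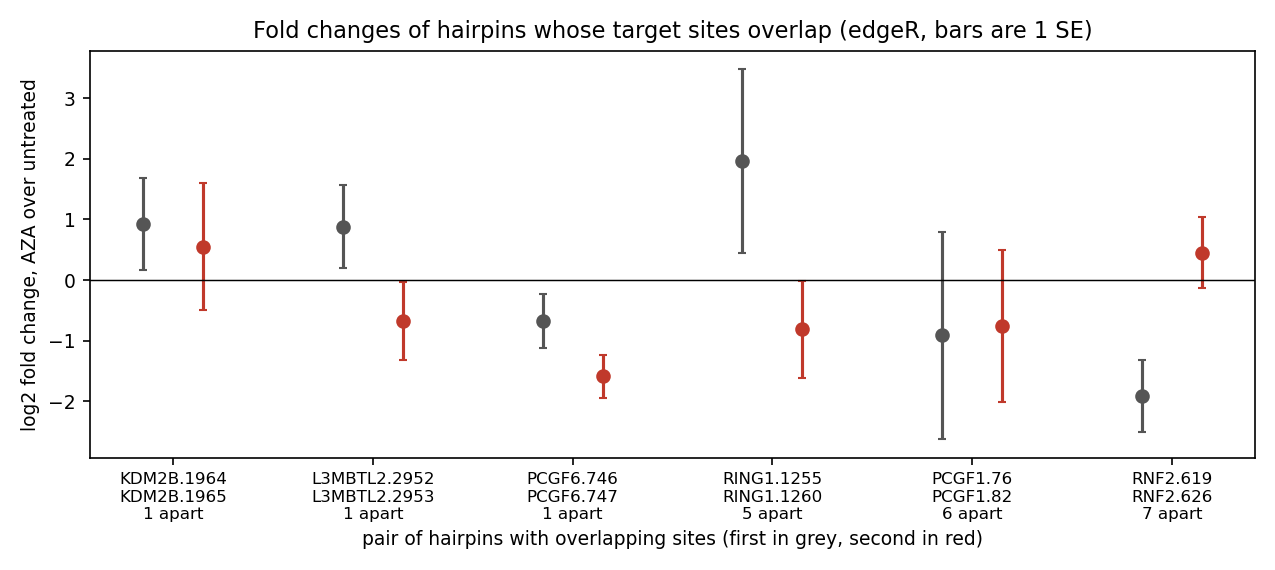
Log2 fold change (AZA over untreated, edgeR, bars are 1 SE) of 6 pairs of hairpins whose 22-base sites overlap, with the first of each pair in grey, the second in red and their distance in bases under the names. Signs are opposite for the pairs of L3MBTL2, RING1 and RNF2 and shared for the other 3.

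The other Polycomb genes of the library gave a setting for these values. Of 45 further genes of the complexes and their opponents, 0 passed limma and 11 had an unadjusted p under 0.05, 10 of them higher and 1 lower with AZA, against 14.3% of all genes higher and 0.658% lower. Their median score difference was 0.31, near the 0.25 of all genes. Among partners of variant PRC1, USP7, a deubiquitinase in PRC1.1, had 1.49 ± 0.64 SE, higher in 2 of 3 pairs (limma adjusted p = 0.333). Its untreated score was 3.95 with an SD of 1.52. The casein kinase subunits CSNK2A1 and CSNK2B of PRC1.5 had 0.79 ± 0.26, higher in 3 of 3 pairs, and 0.94 ± 0.40, higher in 2 of 3 (limma adjusted p = 0.225 and 0.333). CBX3, the heterochromatin protein of PRC1.6, had -0.76 ± 0.25, higher in 0 of 3 pairs (limma adjusted p = 0.216). WDR5, a WD-repeat adaptor shared by PRC1.6 and the MLL complexes, had 1.91 ± 0.44 (limma adjusted p = 0.0872, falling to 0.0271 under the block). USP21, which removes ubiquitin from H2A, had 1.90 ± 0.47 (limma adjusted p = 0.107, falling to 0.0216 under the block), and BAP1, also an H2A deubiquitinase, had 0.78 ± 0.34. These 2 were the genes of smallest p in a list of 8 H2A deubiquitinases and ASXL proteins, of which 4 had a difference above 0 and 4 below, with a median of 0.03 and a lowest value of -0.49.

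Among 12 genes of canonical PRC1 the median was 0.37, with PHC2 at 1.13 ± 0.39 and CBX7, a reader of trimethylated H3K27, at 1.05 ± 0.49. Among 11 genes of PRC2, which writes that mark, the median was 0.50, with EED at 1.00 ± 0.25 and PHF19 at 0.93 ± 0.33. The 6 other proteins with malignant brain tumour repeats had a median of -0.11, with MBTD1 at -0.43 ± 0.31 and SFMBT2 at -0.14 ± 0.25, and KDM2A, the paralog of KDM2B, had 0.04 ± 0.28. None of these passed the correction without the block. A further 13 genes on the lists, among them PCGF3, RYBP and MGA, had no hairpin in the counts.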

How the data were processed

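Genomic DNA of the untreated and the AZA-treated parts of 3 SKK-1 cultures was amplified across the hairpin guide strands and sequenced. The authors deposited raw read counts, 1 file per sample, in which hairpins without a read are left out, and these were set to 0. Per the submitters' processing notes CASAVA 1.9 and GRCh37 were used. The read-assignment program was not given in the sources used here. Counts carry no molecular identifiers, so floors cover counting error only. The intervals given for gene score differences come from limma and rest on the variation between libraries. The floor was 3 counts (0.133 to 0.244 CPM).

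Of 7293 hairpins, 7262 exceeded a CPM of 0.5 in 3 or more libraries and were tested. The quasi-likelihood test of edgeR 4.0.16 (R 4.3.3) was applied to TMM-normalized counts. Gene scores, the mean TMM-normalized log2 CPM of a gene's tested hairpins with a prior count of 2, were tested with limma 3.58.1. Treatment was the only term, Benjamini-Hochberg adjustment ran over all hairpins or genes, and 0.05 was the threshold. The study's rotation test over hairpins was not run. The scripts were tested on simulated data. Alternatives were other scalings, filters, prior counts, gene scores and library weights, the edgeR exact test, DESeq2 1.42.0, each library left out, and the replicate block.

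Replicate numbers pair the samples, as each transduced culture was divided. Deviations from the group means correlated at 0.129, 0.114 and 0.140 for the same number and at -0.098 to -0.025 for others. No library duplicated another of its group, since counts differed by a chi-square of 438 to 906 per degree of freedom.

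Sites of held guides were located in GENCODE transcripts and GRCh38. The members and lists were chosen with earlier results of these data known. Named were all members, the 2 hairpins per member with the smallest p and any with an unadjusted p under 0.05, up to 2 further genes per list, and the 3 genes nearest to RING1 and to RNF2. Low-count hairpins and overlapping pairs were chosen after their values were seen.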

Additional observations from a re-analysis of the deposited data

How the results depend on the processing

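No member gene was called under any alternative run, and no member hairpin was, except that the DESeq2 Wald test called 2 (PCGF6.747 and RNF2.619). The lowest adjusted p of a member gene was 0.0515, for a fit without Untreated 3. With the replicate block 0 member hairpins and 0 member genes were called, and of the 14 genes named from the lists 2, WDR5 and USP21, gained a call. RING1 minus RNF2 ran from 0.78 to 1.22 when single libraries were left out, and was 0.47 with the median over hairpins and 0.45 with summed CPM. Of 153 member gene differences under alternatives 136 kept their sign and 17 did not, in genes whose differences were within 1 SE of 0 except KDM2B. These were, with library totals, RNF2 0.12, PCGF1 0.092 and PCGF5 0.045, with the median over hairpins RNF2 0.080, without the strongest hairpin RNF2 0.18 and BCOR -0.18, with summed CPM BCOR -0.20 and KDM2B -0.0072, and with the mean of edgeR log2 fold changes BCOR -0.14. Leaving out single libraries gave PCGF1 0.097 (Untreated 1), RNF2 0.032, PCGF1 0.088, PCGF5 0.077 and L3MBTL2 0.083 (Untreated 2), BCOR -0.24 (Untreated 3), and RNF2 0.034 and BCOR -0.023 (AZA treated 2). Over these refits PCGF1 ran from -0.39 to 0.097, BCOR from -0.24 to 0.29, PCGF5 from -0.28 to 0.077, L3MBTL2 from -0.52 to 0.083, KDM2B from 0.22 to 0.78, RING1 from 0.81 to 1.18, BCORL1 from 0.82 to 1.70 and PCGF6 from -0.65 to -0.42. Over all 912 genes, 11 were called higher, and 20 with the block or library totals, 25, 5 and 23 without Untreated 1, 2 or 3, and 0 without any 1 AZA library. The share of genes lower was 29.7%, and 16.4% with library totals, 47.6% with the median and 66.0% with summed CPM, where the median difference was -0.14. The causes were not tested, and no setting varied the depth.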
